A study of Homo sapiens with 4 samples.

Results

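GDF15 (growth differentiation factor 15, NCBI Gene 9518) encodes a secreted stress cytokine, and it is described here across 4 RNA-seq libraries of a pancreatic ductal adenocarcinoma cell line. It is 1 of the 16834 genes in the deposited gene table, and 2 of the 70268 deposited transcripts belong to it. The gene was chosen by its measured values in these same libraries: higher with neobractatin (NBT), lower with trametinib, and higher again with both drugs. Its levels and ratios are therefore a description, and nothing was tested with them. The cells were given neither drug (control), or treated for 12 h with 1 µM NBT, with 5 µM trametinib, or with both at the same doses (combination). NBT is a natural compound from Garcinia bracteata, and trametinib inhibits the kinase MEK of the MAPK pathway. All cells carried the label WT, and no other genotype was given. Each condition was 1 library, so no difference in these data has a replicate check, and no p-value is given.

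Library sums were 18776247 to 19614809 estimated reads, and the 10 most abundant genes took 6.45% to 7.17% of each. The titles name the line MIA PaCa-2 in all 4 libraries, although the labels' cell line entries end in a different number in each. The markers went against that label. MIA PaCa-2 is usually described as rich in vimentin, poor in E-cadherin and deleted for CDKN2A. Here VIM was at 11.5 to 26.4 TPM (a transcript level scaled to gene length and to a fixed total), whereas the E-cadherin gene CDH1 was at 51.2 to 86.9 TPM and EPCAM at 209 to 242 TPM. CDKN2A, a gene added to the check after its values were seen, was at 249 to 342 TPM in the 4 libraries. The libraries are called by their labelled treatments below, and what the lines are cannot be told from these values. KRT19 was not analysed here. Markers of other pancreatic cells were close to 0, with a summed level of 1.64 to 2.79 TPM over the 5 of 9 markers in the table. From 3 to 4 of those 5 had a read in each library.

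GDF15 is a divergent member of the TGF-β superfamily. It is made as a proprotein, cut by furin-like convertases and released as a dimer, and as a hormone it acts on hindbrain neurons through the receptor GFRAL with the coreceptor RET, where it lowers appetite. Cells raise it under many stresses. Known inputs include the integrated stress response, in which kinases phosphorylate eIF2α and the factors ATF4 and CHOP (gene DDIT3) switch on their targets, and EGR1. Pancreatic cancers are known for high circulating GDF15, and it is studied as a driver of cancer cachexia.

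The gene lies on the plus strand of chromosome 19 of the human genome (GRCh38, called hg38 in the submitters' notes) at chr19:18386158-18389176 in the RefSeq annotation, a span of 3019 bases. GENCODE v29 gives the gene a longer span, 18374731 to 18389176, with 5 transcripts, several of which begin further upstream. The RefSeq reference transcript, also among those of GENCODE, has 2 exons. Its exon 1 runs from 18386158 to 18386466 and holds the 5′ UTR and the first coding bases, from 18386190 on. Exon 2 runs from 18388286 to 18389176 and holds the rest of the coding sequence, the stop codon at 18388933 to 18388935 and the 3′ UTR. The microRNA gene MIR3189 lies in the intron between them and was not analysed here.

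The 250 bases before the RefSeq start (RefSeq sequence of GRCh38.p14, plus strand, chr19:18385908-18386157) were searched for short motifs. This window is a promoter only for the reference transcript, since other GENCODE transcripts have an exon that begins inside it, at 18385917, and its letters are therefore not printed. The TATA box (TATAAA) sits 29 to 24 bases before the start, and 10.7% of the 35116 RefSeq promoter windows of this length hold the same letters on either strand. A GC box (GGGCGG) lies on the plus strand 70 to 65 bases before the start and another on the minus strand at 119 to 114 bases. At least 1 GC box was found in 42.6% of the windows. The C+G content was 58.4%, against a median of 58.0% over all windows. The composite C/EBP-ATF element TGATGNAA was not in the window on either strand, and 3.14% of all windows hold it. Of 21 windows of the ATF4 and CHOP targets described below, 2 held it, 1 each of ASNS and CHAC1. Of 10 windows of the genes most like GDF15, also described below, 1 held it, that of HERPUD1. The GDF15 window also lacked the letters of the cAMP response element (TGACGTCA, 1.65% of windows) and the AP-1 site (TGANTCA, 6.57%). It lacked those of the EGR1 site (GCGNGGGCG, 8.41%) and the antioxidant response element (TGACNNNGC, 10.9%) as well. The absence of letters from this window says nothing of binding elsewhere.

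GDF15 was counted at 100 reads in the control, at 862 after NBT, at 47 after trametinib and at 1047 after both drugs. The 95% Poisson intervals were 81.4 to 122, 805 to 922, 34.5 to 62.5 and 985 to 1112 reads. These intervals, and all others given here, cover counting error only, since PCR copies without molecular identifiers are not independent molecules. As CPM, reads scaled to the same total in every library, the control was at 5.33 CPM (4.33 to 6.48) and the NBT library at 44.3 CPM (41.4 to 47.4). The trametinib library was at 2.48 CPM (1.82 to 3.30) and the combination at 53.4 CPM (50.2 to 56.7). The order of the levels was thus trametinib, control, NBT, combination. Neighbours in that order had intervals that did not overlap, but the spread between cultures was not measured. On the length-scaled TPM scale the levels were 8.92, 71.39, 4.12 and 87.82 in the control, NBT, trametinib and combination libraries. By TPM, GDF15 ranked 8652nd of 16834 genes in the control. It ranked 2237th in the NBT library, 10112th in the trametinib library and 1854th in the combination library. It therefore lay above 48.6% of all genes in the control and above 89.0% with both drugs.

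**Figure D1:**
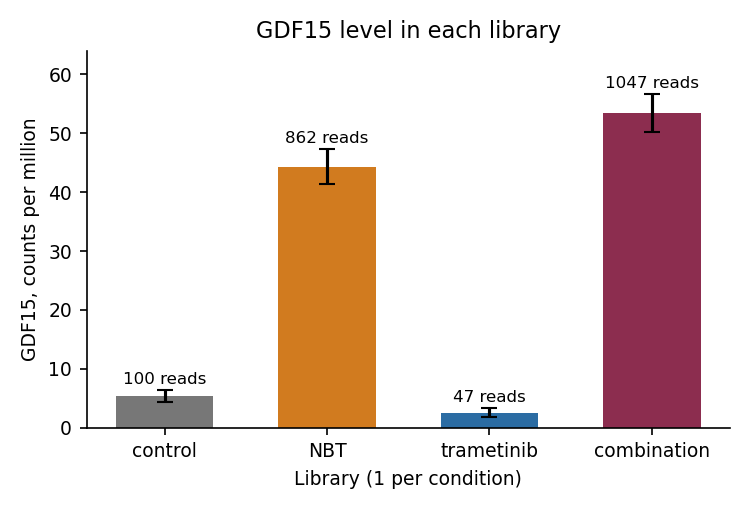
GDF15 level in CPM in each of the 4 libraries, with 95% Poisson intervals (counting error only) and the read number above each bar. The trametinib bar (2.48 CPM) is the lowest, the control (5.33 CPM) is next, and the NBT (44.3 CPM) and combination (53.4 CPM) bars stand well above both.

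Nearly all reads came from 1 transcript. NM_004864.4, the reference transcript, was assigned 96.78, 852.35, 47.00 and 1043.78 estimated reads in the control, NBT, trametinib and combination libraries, from 96.8% to 100% of the gene. The predicted transcript XM_024451789.1 was assigned 3.22, 9.65, 0 and 3.22 reads. The differences between libraries were thus differences of the reference transcript. The 0 in the trametinib library is under the floor of 3 counts used here and does not show that the transcript was absent.

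With NBT alone the GDF15 level was 8.29-fold that of the control (95% Clopper-Pearson interval 6.76 to 10.3), a log2 ratio of 3.05. Among the 11081 genes with at least 50 reads in either library this was the 7th highest ratio. With trametinib alone it was 2.14-fold lower than the control (1.50 to 3.11), a log2 ratio of −1.09, and 229th from the lowest of 11222 genes. With the combination it was 9.98-fold that of the control (8.16 to 12.4), a log2 ratio of 3.32 and the 27th highest of 11207. All of these ratios rest on the same control library and its 100 GDF15 reads. The ratio of combination to trametinib uses neither the control nor the NBT library, and was 21.3 (16.1 to 29.5), the 6th highest of 11267. The combination was 1.20-fold above NBT alone (1.10 to 1.32), a ratio that ranked 2263rd of 11173 genes. NBT alone was 17.7-fold above trametinib alone (13.3 to 24.5).

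**Figure D2:**
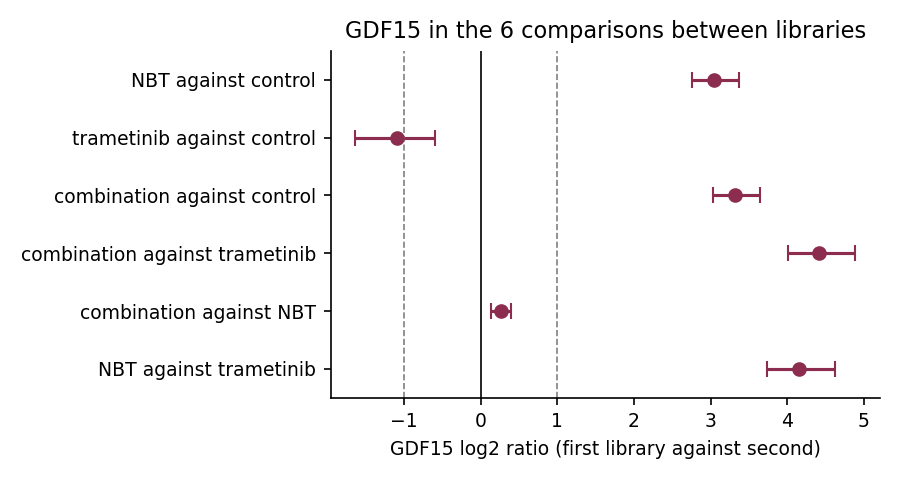
GDF15 log2 ratio for each of the 6 pairs of libraries, with 95% Clopper-Pearson intervals and dashed lines at a log2 ratio of 1 in either direction. The 4 pairs that set an NBT-containing library against one without NBT lie between 3.05 and 4.41, trametinib against control lies at −1.09, and combination against NBT lies at 0.27.

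A gene was called between 2 libraries where an exact binomial test of its reads, adjusted over all tested genes, and a log2 ratio of at least 1 were both met. Such a call compares libraries, not conditions. Of 15891 genes tested between NBT and control, 259 (1.63%) were called higher and 180 (1.13%) lower. Between trametinib and control, 623 of 16199 genes (3.85%) were called higher and 370 (2.28%) lower. Between combination and control, 794 of 16233 (4.89%) were called higher and 622 (3.83%) lower, and between combination and trametinib 432 of 16345 (2.64%) were called higher and 609 (3.73%) lower. GDF15 was called higher, lower, higher and higher in these comparisons, as its choice required of the first 3. Its trametinib call, whose log2 ratio of −1.09 lies just past the limit of 1, was lost with a log2 limit of 2, and also when cultures were assumed to vary with a coefficient of variation of 0.2. Its NBT and combination calls held under both.

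Called higher with NBT, lower with trametinib and higher with the combination were 3 of the 15509 genes tested in all comparisons with the control: AREG, ARHGEF2 and GDF15. AREG encodes the EGF receptor ligand amphiregulin and ARHGEF2 the guanine nucleotide exchange factor GEF-H1. AREG had 692, 1680, 281 and 1463 reads in the control, NBT, trametinib and combination libraries, and its values were looked up because of this count. ARHGEF2 had 1301, 3887, 556 and 3055 reads in the same order. In both genes the combination stayed below NBT alone, at a log2 ratio of −0.21 (−0.31 to −0.11) for AREG and −0.36 for ARHGEF2, whereas GDF15 lay above it at 0.27 (0.14 to 0.40). At the inner edge of the log2 limit, AREG had a combination ratio of 1.02 and GDF15 a trametinib ratio of −1.09. Nearest outside it was KDM7A, a histone demethylase gene, with 130, 256, 73 and 271 reads and log2 ratios of 0.92, −0.84 and 0.99. With TMM or DESeq2 scaling the AREG call was lost and 2 genes were left. With no limit on the log2 ratio 267 genes had the same order of calls, and under that assumed variation 0 had.

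The effect of trametinib was read without and with NBT. If the log2 ratios of the single drugs had added up, 407 GDF15 reads would have been in the combination library, and 1047 were. The departure from additivity was 1.36 on the log2 scale (0.85 to 1.88), or 2.57-fold (1.80 to 3.67). It ranked 44th of 11367 genes with at least 50 reads in any library, so that 0.387% of them had a departure as large or larger, against a median of −0.03. The trametinib ratio of GDF15 was below 0 without NBT and above 0 with it, and 1399 of the 11367 genes (12.3%) had the same change of sign. The GDF15 values enter both ratios and the rule that chose the gene, so its place is descriptive.

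**Figure D3:**
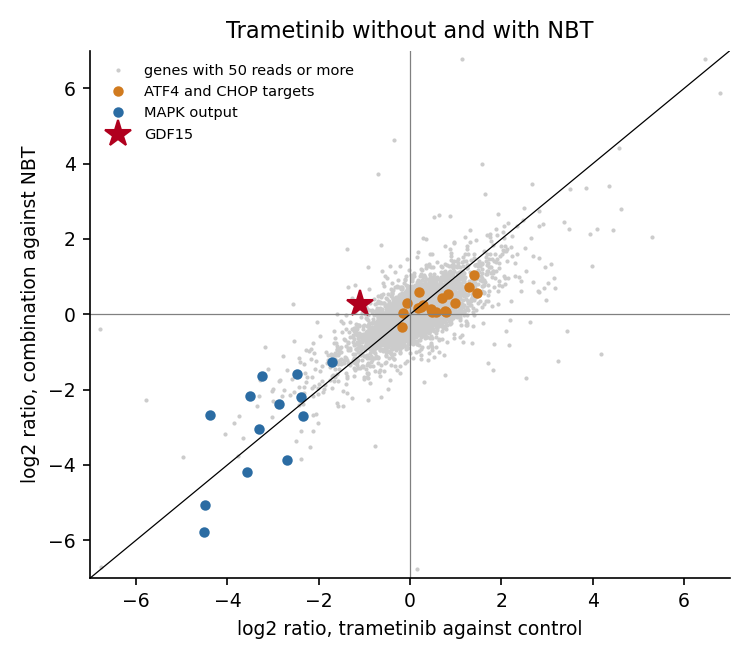
Log2 ratio of trametinib to control (x axis) against that of combination to NBT (y axis) for genes with at least 50 reads in any library, with the diagonal of equal ratios. GDF15 (red star, −1.09 and 0.27) lies above the diagonal, the 13 MAPK output genes (blue) lie below 0 on both axes, and 15 of the 18 ATF4 and CHOP targets (orange) lie above 0 on both.

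The genes whose 4 levels were most like those of GDF15 were found by the Euclidean distance between log2 CPM values centred on each gene's mean over the 4 libraries, among the same 11367 genes. Because only 4 points enter, and all genes share the libraries, the distances are a description. The nearest was HSPA5 (distance 1.01), which encodes the ER chaperone BiP, followed by EID3 (1.14), DNAJB9 (1.15) and HERPUD1 (1.51). MMP3, SESN2, TMEM125, STC2 and ARHGEF2 were also among the 10 nearest, at 1.68 to 1.82, and the median distance over all genes was 3.85.

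HSPA5 had 9310, 61352, 8012 and 76120 reads in the control, NBT, trametinib and combination libraries. Its combination to NBT log2 ratio of 0.30 lay close to that of GDF15 (0.27), while its trametinib to control ratio of −0.23 was smaller in size than −1.09. DNAJB9, an ER-resident cochaperone, had 162, 756, 125 and 1349 reads in the same order, and its trametinib ratio was −0.39 (−0.74 to −0.04). Like GDF15 it was lowest with trametinib and highest with the combination. HERPUD1, which acts in ER-associated degradation, had 908, 6615, 1364 and 9808 reads, with a trametinib ratio of 0.57. SESN2, a stress-induced inhibitor of mTORC1 signalling, had 267, 2015, 476 and 2981 reads, with a trametinib ratio of 0.82. EID3, related to a subunit of the SMC5/6 complex, had few reads, 8, 29, 4 and 70. Of the 10 nearest genes 1, ARHGEF2, was called lower with trametinib, beside 2.28% of all genes. The 10 were picked by their levels in these same libraries, so this count is a description.

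**Figure D4:**
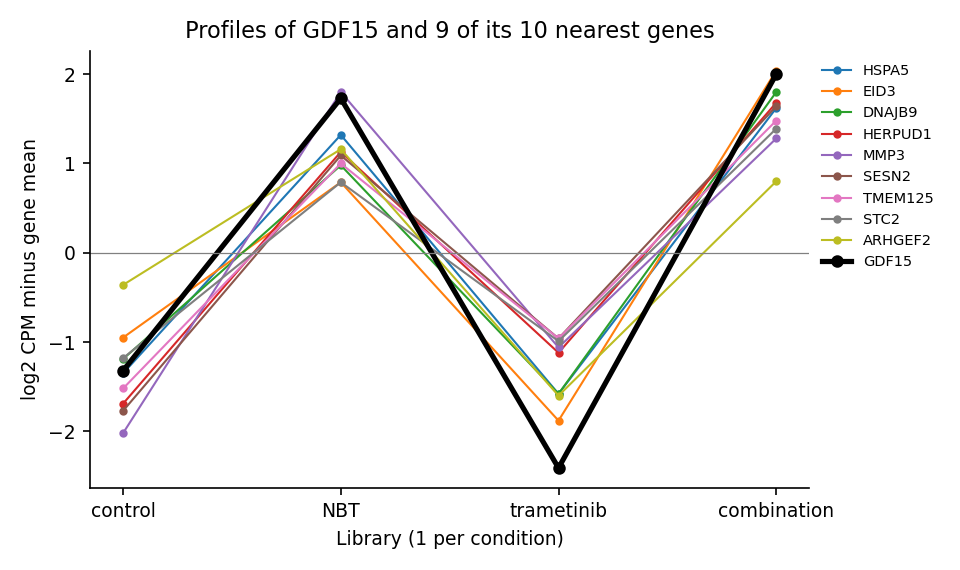
Log2 CPM of GDF15 (black) and of 9 of its 10 nearest genes in each library, centred on each gene's mean over the 4 libraries. All lines are higher in the NBT and combination libraries than in the control, and GDF15 has the deepest point with trametinib, at −2.41.

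The genes upstream of GDF15 in the integrated stress response were read next. The 4 eIF2α kinases and the subunits of its phosphatase made a list of 8. With NBT only PPP1R15A (GADD34, the stress-induced phosphatase subunit) was called higher (12.5% of the list, beside 1.63% of all genes). PPP1R15A had 4977 reads in the control and 11332 with NBT. With trametinib none was called, and PPP1R15A had 3171 reads and a log2 ratio of −0.66 (−0.73 to −0.60). With the combination PPP1R15A (14461 reads) and EIF2AK3 (the ER stress kinase PERK) were called higher (25.0%, beside 4.89%). In a list this short these shares rest on 1 or 2 calls. EIF2AK3 had 285, 452, 407 and 861 reads in the control, NBT, trametinib and combination libraries. PPP1R15A thus ordered the libraries as GDF15 did, with a smaller departure from additivity of 1.00. The list's median log2 ratios against the control were 0.02, −0.11 and −0.05 for the NBT, trametinib and combination libraries, against −0.01, 0.08 and 0.05 over all tested genes. From the deposited TPM the NBT median was −0.07.

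Of 15 transcription factors linked to GDF15, 5 were called higher with NBT (33.3% of the list, beside 1.63% of all genes) and none lower. The 5 were DDIT3, XBP1, CEBPB, CEBPG and KLF4. With trametinib 2 were called higher (13.3%, beside 3.85%) and EGR1 lower (6.67%, beside 2.28%). With the combination 6 were called higher (40.0%, beside 4.89%), and ATF5 and EGR1 lower (13.3%, beside 3.83%). ATF5 had 507, 371, 368 and 263 reads in the control, NBT, trametinib and combination libraries. The mRNA of ATF4, which is known to be controlled mainly at translation, was not called, with 8712, 13221, 10493 and 13418 reads and a log2 ratio of 0.55 (0.51 to 0.59) with NBT. DDIT3, encoding CHOP, had 196, 1298, 443 and 2589 reads. Its log2 ratio was 2.67 (2.46 to 2.90) for NBT, 1.16 (0.92 to 1.41) for trametinib and 3.66 (3.45 to 3.88) for both drugs, so it was called higher with trametinib alone while GDF15 was called lower. ATF3, a stress-induced factor of the same family, had 718, 1405, 2329 and 6091 reads and was called higher with trametinib and with the combination.

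EGR1, an immediate early factor downstream of ERK, had 802, 479, 99 and 117 reads and was called lower with trametinib and with the combination. Between those last 2 libraries EGR1 differed little, at a log2 ratio of 0.19 (−0.21 to 0.59), where GDF15 differed by 4.41. CEBPB, which pairs with ATF4 and CHOP on DNA, had 1704, 4706, 1526 and 5745 reads. KLF4 had 313, 741, 242 and 849 reads. CEBPB and KLF4 had the same order of levels as GDF15, with trametinib ratios of −0.17 and −0.38 that were not called. Of the 15 factors, 14 had a trametinib ratio above that of GDF15, and EGR1 did not.

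Targets of ATF4 and CHOP made a list of 18. With NBT 11 of 18 were called higher (61.1%, beside 1.63% of all genes), among them SLC7A11 (the cystine transporter), TRIB3 (a pseudokinase that restrains ATF4 and CHOP), CHAC1 (a glutathione-degrading enzyme) and ASNS, and 1 lower, SLC3A2 (5.56%, beside 1.13%). The median log2 ratio was 1.51. With trametinib 3 were called higher (SLC7A11, CTH and PCK2, 16.7% beside 3.85%) and none lower, with a median of 0.52 and 15 of 18 above 0. The lowest member, VLDLR, stood at −0.19, so GDF15 at −1.09 lay below every one of the 18. With the combination 11 were called higher (61.1%, beside 4.89%) and none lower, with a median of 1.64.

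SLC7A11 had 279, 2491, 739 and 5136 reads in the control, NBT, trametinib and combination libraries. Its NBT ratio of 3.11 was the only one of the 18 above that of GDF15. CHAC1 had 93, 492, 187 and 616 reads. TRIB3 had 1070, 4499, 1306 and 5426 reads. These 3 genes were higher with trametinib than in the control, at log2 ratios of 1.39, 0.99 and 0.27, of which only that of SLC7A11 was called. The ratio of combination to NBT was a median of 0.23 for the list, beside 0.27 for GDF15. Of the 18 targets, 2 (11.1%) had a trametinib ratio below 0 alone and above 0 with NBT, close to the 12.3% of all genes with 50 reads.

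**Figure D5:**
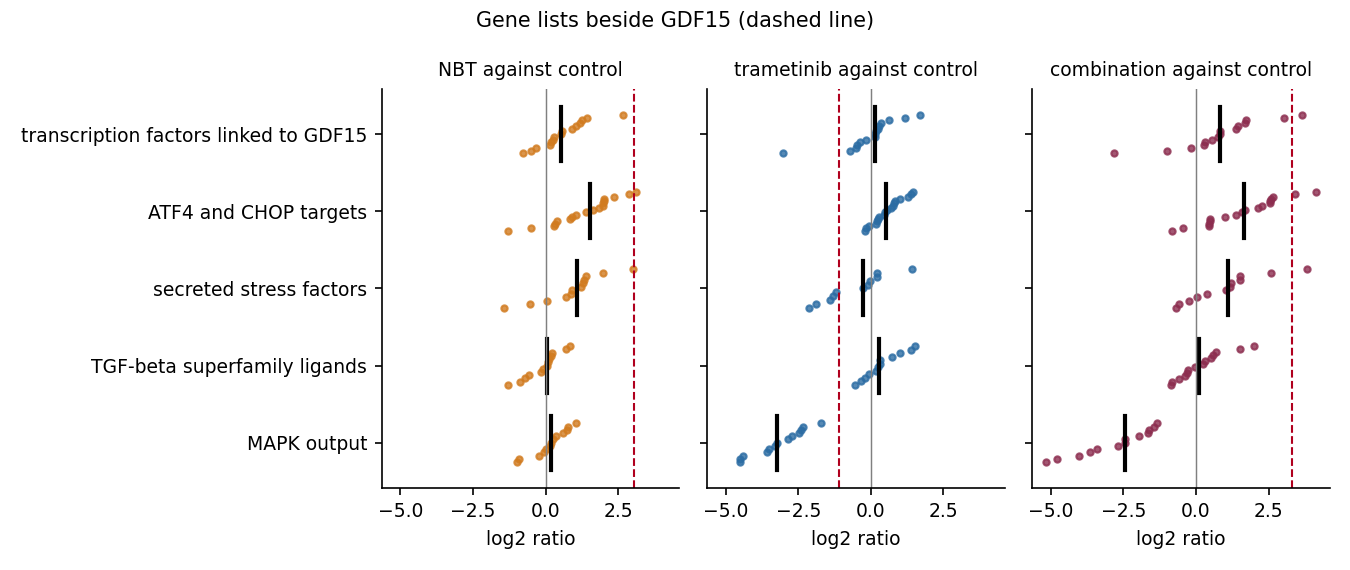
Log2 ratios of the members of 5 gene lists with at least 10 reads in either library (points), their median (black bar) and GDF15 (red dashed line), for NBT, trametinib and the combination against the control. The line lies above nearly all points with NBT (3.05), below most points other than those of MAPK output with trametinib (−1.09) and above nearly all with the combination (3.32).

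Output genes of the MAPK pathway, the readout of MEK inhibition, gave the check of the trametinib libraries. All 13 were called lower with trametinib (100%, beside 2.28% of all genes), at a median log2 ratio of −3.24. All 13 were also called lower with the combination (100%, beside 3.83%), at −2.43. This list, like the others, was chosen with earlier results of these data known. DUSP6, a phosphatase that ERK itself induces, had 329, 521, 14 and 9 reads in the control, NBT, trametinib and combination libraries. With NBT alone only ETV5 was called, higher (7.69%, beside 1.63% of all genes), from 367 to 777 reads. GDF15 was thus lower in 1 of the 2 trametinib-treated libraries, whereas all 13 output genes were below the control in both.

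Secreted stress factors, the functional neighbours of GDF15 among released proteins, were the next list. With NBT 6 of the 14 tested were called higher (42.9%, beside 1.63% of all genes), STC2, ADM2, MANF, SDF2L1, AREG and HBEGF. IL6 was called lower (7.14%, beside 1.13%). ADM2, a calcitonin family peptide, had 16, 136, 44 and 244 reads, and its NBT ratio was the highest of the list. MANF, a factor released under ER stress, had 1056, 2672, 990 and 3128 reads. With trametinib STC1 and ADM2 were called higher (13.3%, beside 3.85%), and VEGFA, CXCL8, LIF, AREG and HBEGF lower (33.3%, beside 2.28%). LIF, another cytokine linked to cachexia, had 756, 809, 175 and 485 reads, so that unlike GDF15 it was below the control with the combination. HBEGF, an EGF receptor ligand, had 147, 395, 40 and 101 reads. With the combination 8 of 15 were called higher (53.3%, beside 4.89%) and none lower. FGF21, a hormone often measured beside GDF15, had 0, 1, 1 and 3 reads, at or under the floor of 3 counts, and no fold is given.

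The rest of the TGF-β superfamily was compared with GDF15 by its ligands. Of 32 ligands, 26 were in the table, and BMP10, BMP15, GDF2, GDF3, GDF10 and MSTN were not analysed here. With NBT none of the 23 tested was called higher, beside 1.63% of all genes. TGFB2 was called lower (4.35%, beside 1.13%), with 1611 reads in the control and 680 with NBT. With trametinib INHA, INHBA and BMP2 were called higher (12.5%, beside 3.85%) and none lower. With the combination 2 of the 25 tested, INHBC and INHBE, were called higher, beside 4.89% of all genes. A list this short would rarely give a higher call at the NBT share of all genes. The lack of one is therefore no result about the family. Over members with at least 10 reads, the median log2 ratios were 0.03, 0.28 and 0.10 for NBT, trametinib and both drugs. GDF15 exceeded all of these members with NBT and with the combination, and lay below all of them with trametinib. INHBE, an activin subunit known as a stress response gene, had only 7, 12, 8 and 22 reads.

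On the TPM scale the family's most abundant ligand in the control was TGFB1. It was at 217.54, 180.94, 149.10 and 158.27 TPM in the control, NBT, trametinib and combination libraries. TGFB2 followed at 28.68, 11.14, 33.30 and 15.29 TPM, then GDF11 at 20.26 and AMH at 19.67 TPM in the control. BMP7 was at 11.94 TPM in the control. GDF15, at 8.92 TPM, was below these ligands in the control and with trametinib. With NBT (71.39 TPM) and with the combination (87.82 TPM) it was second to TGFB1 among them.

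Genes for the maturation and reception of GDF15 made a list of 6. None of them was called in any of the 4 comparisons, beside 1.13% to 4.89% of all genes called in each direction. With 5 or 6 members tested, such shares would rarely give a call, so the lack of calls is no result about these genes. FURIN, the convertase best known for such cuts, had 1894, 1926, 1261 and 1316 reads in the control, NBT, trametinib and combination libraries, and log2 ratios of −0.60 with trametinib and −0.59 with the combination. PCSK7, another convertase, had 1418, 1347, 1380 and 1391 reads. GFRAL had 12, 13, 6 and 8 reads, and RET had 0, 1, 0 and 3. The RET reads were at or under the floor of 3 counts, so no fold is given. Cleavage and release of the protein were not measured by RNA-seq.

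The genes around GDF15 on chromosome 19 were compared last. PGPEP1, a pyroglutamyl peptidase gene that ends 16207 bases upstream, had 595, 1016, 380 and 676 reads. Its log2 ratios of 0.72 with NBT and −0.66 with trametinib were of the same sign as those of GDF15 and were not called, and with the combination it stood at 0.12. LRRC25, 1960 bases downstream, had 6, 24, 15 and 19 reads. Of 29 other genes within 500 kb on each side, 2 were called higher with NBT (SLC5A5 and LRRC25) and IQCN lower, which is 6.90% and 3.45% beside 1.63% and 1.13% of all genes. None was called with trametinib, and the medians of their log2 ratios were 0.07, 0.13 and 0.03 for NBT, trametinib and both drugs. With the combination LRRC25 and KLHL26 were called higher and RAB3A lower, which is 6.90% and 3.45% beside 4.89% and 3.83% of all genes. With so few genes these shares rest on 1 or 2 calls each.

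The pair of NBT comparisons that share no library were NBT against control and combination against trametinib. Called higher in both, as GDF15 was, were 127 genes, 49.0% of the 259 of the first and 29.4% of the 432 of the second. Of all tested genes, 1.63% were called higher in the first and 2.64% in the second. Called lower in both were 103 genes, 57.2% of the 180 and 16.9% of the 609, beside 1.13% and 3.73% of all tested genes. GDF15 had log2 ratios of 3.05 and 4.41 in these comparisons.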

How the data were processed

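RNA of 4 libraries (1 per condition) was sequenced on the BGISEQ-500 platform. The submitters' processing notes name hg38, Bowtie2 2.2.5 and RSEM 1.2.8, without their roles, and the labels name an rRNA depletion kit. The authors deposited, per gene and per transcript, estimated counts that are not normalized (expected counts), TPM values scaled to length and library, and FPKM values scaled to length and mapped fragments. No column of values lacked a sample.

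Estimated counts were rounded and scaled to each library's sum (18776247, 19437791, 18949965 and 19614809 in control, NBT, trametinib and combination). The GDF15 counts were whole in all 4 as deposited, within 0.005, as were those of 46.1% of genes. Log2 ratios used 0.5 added reads and ratio intervals are 95% Clopper-Pearson. Calls used an exact two-sided binomial test of 2 libraries' counts, adjusted by Benjamini-Hochberg over every gene counted at least 1 time in either library, at 0.05 and an absolute log2 ratio of 1, the limits in the study's methods. The calls were also run on simulated Poisson counts with no spread between cultures. That run cannot say how the calls behave when cultures vary.

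GDF15, the 10 gene lists (137 different genes in all) and the tests were chosen with earlier results of these data known. Named genes were GDF15, its 10 nearest genes (at least 50 reads in any library), ATF4, DDIT3, ATF3, EGR1, GFRAL, RET, FURIN, FGF21 and INHBE, up to 5 further members of each list with at least 100 reads and the largest ratios, ligands of at least 1 TPM, and the genes next to GDF15. AREG, CDKN2A, and members named only as called, as extremes of a list or as nearby genes were added after values were seen.

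Alternatives were edgeR 4.0.16 TMM and DESeq2 1.42.0 size factors, deposited TPM and FPKM with 0.1 added, 5 reads added, summed transcripts, other limits on reads and log2 ratio, and edgeR's exact test assuming that cultures vary by a coefficient of 0.2. Python 3.11.15, scipy 1.17.1, statsmodels 0.14.6 and R 4.3.3 were used. Motif windows came from the RefSeq table of GRCh38.p14. No protein sequence was used here, and some genes and 1 list are not reported here.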

Additional observations from a re-analysis of the deposited data

Results flagged for a closer look

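GDF15 had trametinib ratios of opposite sign without and with NBT. Its log2 ratio was −1.09 for trametinib against control and 0.27 for combination against NBT. With 1 library in each condition the difference was not tested.

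The same change of sign, with both counting intervals off 0, was found in a few other named genes, again without a test. HSPA5 and DNAJB9 were named because their levels in these same libraries were nearest to those of GDF15, so their likeness to it is no separate result. Leaving the counting intervals aside, 1399 of the 11367 genes with at least 50 reads (12.3%) went from below 0 to above 0. In HSPA5 the ratios were −0.23 and 0.30, in DNAJB9 −0.39 and 0.82, and in PPP1R15A −0.66 and 0.34. CEBPB had −0.17 and 0.27, and KLF4 had −0.38 and 0.18. In BMP7 the signs were the other way round, 0.33 and −0.49. Of these genes GDF15 had the largest trametinib ratio in size without NBT, and DNAJB9 the largest with NBT.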

How the results depend on the processing

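The 7 GDF15 values (6 log2 ratios and the departure from additivity) were recomputed under 6 settings each: TMM and DESeq2 scaling, TPM, FPKM, 5 added reads and summed transcripts. All 42 stayed within the counting interval of the value reported. The log2 ratio ranged from 2.99 to 3.06 for NBT against control, from −1.16 to −1.03 for trametinib and from 3.26 to 3.32 for the combination. The departure from additivity ranged from 1.29 to 1.40.

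Counts of called genes depended on the limits. With a log2 limit of 2 the calls went from 439 to 131 for NBT, from 993 to 371 for trametinib and from 1416 to 433 for the combination. With an assumed coefficient of variation of 0.2 they were 69, 365 and 547. The 3 genes of the GDF15 pattern became 267 with no log2 limit, 2 with TMM or DESeq2 scaling (AREG was lost) and 0 with the assumed coefficient. Of the 10 nearest genes 4 were shared with a limit of 10 reads in place of 50, and HSPA5 was nearest under every setting run. Of 200 recomputed list medians 16 moved by 0.1 or more and 3 changed sign, all 3 from the deposited TPM. These were the receptor and maturation list with NBT (0.01 to −0.06), the eIF2α list with NBT (0.02 to −0.07) and markers of other pancreatic cells, combination against trametinib (−0.05 to 0.30).

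The spread between cultures was not measured, since each condition was 1 library. The 47 reads with trametinib set the width of every ratio to that library, and those of the control (100) of every ratio to the control. No paired analysis was possible because each condition has 1 library.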
